A study of Mus musculus with 8 samples.

Results

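The proteasome genes examined here are the genes whose symbols begin with Psma, Psmb, Psmc, Psmd, Psme, Psmf or Psmg followed by a number, leaving out pseudogene and antisense names. Of the 15210 genes listed for mouse liver, 49 matched. Psmc3ip matched by its letters alone, since it encodes a partner of a subunit that works in meiotic recombination, and it was kept apart. The remaining 48 genes were grouped as core, cap, inducible catalytic subunits, regulators and assembly factors.

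RNA was sequenced from the livers of female F1-TKm30 mice, 4 treated with MOCA and 4 controls. MOCA, 4,4'-methylenebis(2-chlorobenzenamine), is an aromatic amine used to cure polyurethane, and it was given at 0.05% for 4 weeks, against 0% in controls. All 8 mice carried a cDNA of HSVtk mutant clone 30 driven by the enhancer and promoter of mouse transthyretin, a gene active in hepatocytes. The series' design names NOG mice, an immunodeficient strain without mature lymphocytes, whereas the treatment label names C57BL mice. Mice were 17 to 21 weeks old, with the age of each mouse not given. Each value is a TMM-scaled CPM, a read count set against the size of its library, and ± gives the SD over 4 mice. A log2 fold change is the mean of log2(value + 1) in MOCA livers minus that in control livers, and SE is its standard error. Whole livers were sampled, so fewer cells of a type and less RNA per cell cannot be told apart.

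The proteasome degrades proteins that carry ubiquitin chains. Its barrel-shaped core is built from rings of alpha and beta subunits, and 3 of the beta subunits cut proteins. A cap with a ring of ATPases binds the substrate, removes its ubiquitin, unfolds it and feeds it into the core. In hepatocytes, as in other cells, the transcription factor NRF1 (Nfe2l1) raises many of these genes together when proteasome activity falls short, and interferon exchanges the catalytic subunits for inducible ones that favour peptides for MHC class I.

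Reads on the listed genes numbered 15024945 to 15970453 in MOCA livers and 16077424 to 17101844 in control livers. Each MOCA library thus held fewer of these reads than each control library, and reads outside the listed genes are not known. The number of these reads and treatment therefore cannot be told apart. Of 12008 genes tested, 48 were higher and 32 lower in MOCA livers (limma, Benjamini-Hochberg adjusted p under 0.05), or 0.666% of the genes. With columns scaled to equal sums these were 131 and 38, and with upper quartile scaling 45 and 51. The summed hepatocyte markers, 10 of 10 of which were listed, ranged from 98175 to 113350 in MOCA livers and from 112570 to 129190 in control livers. The 11 macrophage markers, all listed, summed to 376 to 497 in MOCA livers and 364 to 441 in control livers. Of 11 lymphocyte markers 3 were listed, Ptprc, Cd4 and Cd8a. Their sum was 9.29 to 14.4 in MOCA livers and 7.02 to 11.4 in control livers, most of it from Ptprc. Of the 8 neutrophil and dendritic cell markers 7 were listed, summing to at most 2.81 in any mouse. Endothelial markers summed to 525 to 564 in MOCA livers and 573 to 660 in control livers, stellate cell markers to 381 to 479 in MOCA and 462 to 512 in control livers, and bile duct markers to 36.4 to 55.1 in MOCA and 40.7 to 49.7 in control livers. The part of these differences in the results below was not tested.

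Among the proteasome genes 1 was called, Psmd14, the gene of a deubiquitinating cap subunit, which was 1.53-fold higher in MOCA livers. The other 46 did not pass the test, and most of their differences were small and positive. Of the 48 genes 47 reached the minimum for testing, a value of at least 1 in 4 libraries. Called members were 1 higher and 0 lower of 47, against 0.4% higher and 0.266% lower among all tested genes. The log2 fold change was positive for 45 and negative for 2, against a positive value in 51.1% of all tested genes. The median log2 fold change of the 47 members was 0.15, a fold of 1.11, and that of all tested genes was 0.0051. Of all tested genes 20.9% had a log2 fold change at or above the members' median. At an unadjusted p under 0.05, 11 of 47 members were higher (23.4%, against 9.42% of all tested genes) and 0 were lower (against 8.05%). In either direction the share of all tested genes was 17.5%. These shares are the background for the counts at an unadjusted p under 0.05 given below for each class and list. In 6 members every MOCA value lay above every control value (12.8%, against 5.5% of all tested genes), and in 0 below (against 4.96%). The count tests on recovered reads each called 1 member, Psmd14, where edgeR called 0.683% and DESeq2 3.54% of all tested genes. Psma8, a testis form of an alpha subunit, was below the minimum at 0.51 ± 0.247 in MOCA livers and 0.594 ± 0.157 in control livers.

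**Figure D1:**
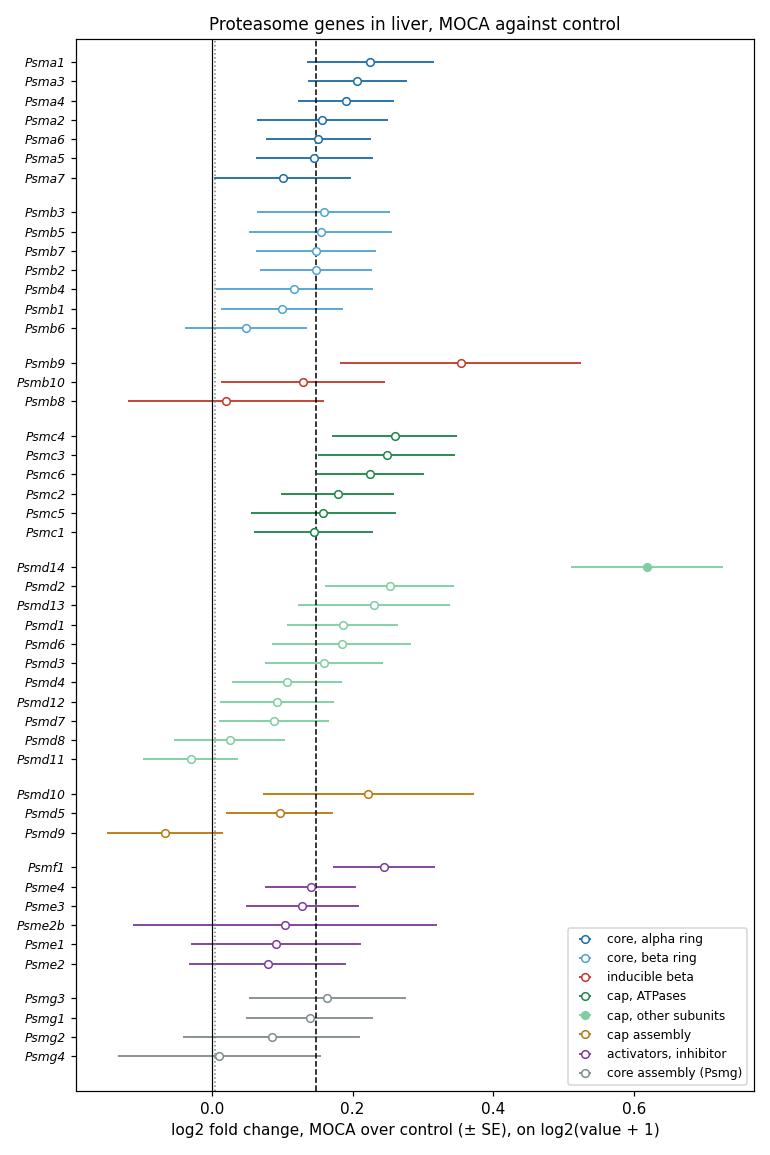
Log2 fold change of each of the 47 tested proteasome genes, MOCA over control, with its standard error, grouped and coloured by class. A filled symbol marks an adjusted p under 0.05, the dashed line is the median of the members (0.15) and the dotted line that of all tested genes (0.0051). Psmd14 stands apart at 0.62, and 45 of 47 symbols lie right of 0.

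The MOCA mice lay close together and the control mice were spread widely. The mean log2 deviation of the 47 members from the control mean was 0.13, 0.16, 0.17 and 0.14 in MOCA replicates 1, 2, 3 and 4. In control replicates 1, 2, 3 and 4 it was -0.047, 0.13, -0.14 and 0.058. Control replicate 2 thus lay within the MOCA range, and 43 of its 47 members were above the control mean, as were 43 in MOCA replicate 1. Control replicate 3 had the lowest value of the 8 mice in 29 members (61.7%), against 17.5% of all tested genes. MOCA replicate 3 had the highest value in 21 members (44.7%), against 13.4% of all tested genes. The spread was wider among controls than among MOCA mice in 37 members (78.7%), against 52.6% of all tested genes. Summed over the members, the level was 2761, 2796, 2888 and 2710 in the MOCA mice, against 2408, 2769, 2293 and 2609 in the controls, so the groups overlapped. As a share of the reads on listed genes, without the TMM scaling, the 48 genes took 0.272% to 0.291% in MOCA livers and 0.231% to 0.258% in control livers. Here the groups did not overlap. On that basis genes in general shifted too. With columns scaled to equal sums, the median log2 fold change was 0.053 for all tested genes and 0.20 for the members. Under the TMM scaling, the members' median without Psmd14 was again 0.15.

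**Figure D2:**
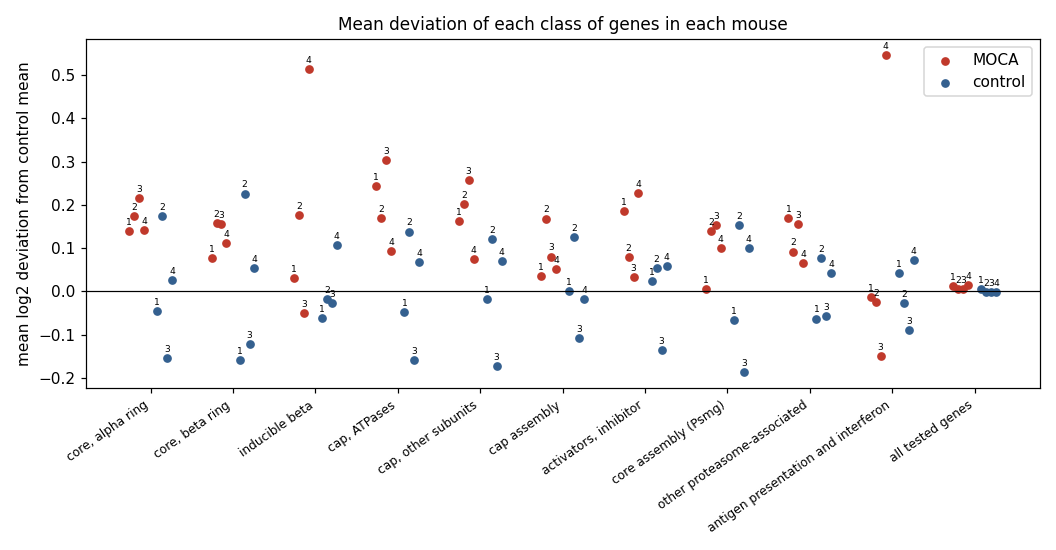
Mean log2 deviation from the control mean for the genes of each class in each of the 8 mice, numbered by replicate, with 2 lists of other genes and all tested genes at the right. Control replicate 3 is lowest in most proteasome classes, and MOCA replicate 4 stands at 0.51 for the inducible subunits and 0.55 for antigen presentation and interferon genes.

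Psmd14 encodes the metalloprotease of the cap that cuts ubiquitin chains off a substrate as it is drawn in (chromosome 2, 61711694 to 61800376, GRCm38). Its level was 32.7, 36.0, 38.8 and 34.4 in MOCA replicates 1 to 4, against 23.9, 24.2, 18.0 and 25.6 in control replicates 1 to 4. The lowest MOCA mouse was 7.08 above the highest control mouse, and control replicate 3 was the lowest of all. Psmd14 averaged 35.5 ± 2.60 in MOCA livers and 22.9 ± 3.35 in control livers, a log2 fold change of 0.62 (SE 0.11, 1.53-fold, limma adjusted p = 0.0284). It ranked 47 by p among the 12008 tested genes and 26 by fold change among the 48 called higher. The adjusted p was 0.028 with edgeR and 7.49e-05 with DESeq2. Psmd14 was called in 3 of 8 fits that left out a mouse. It was not called without control replicate 1 or 2 or MOCA replicate 2, 3 or 4, where the adjusted p from limma was 0.0593, 0.0604, 0.0697, 0.0693 and 0.0591, with a log2 fold change of 0.58 to 0.65. Between 292 and 599 reads per library lay behind these values.

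No other listed gene overlapped the span of Psmd14, and 2 others lay within 500000 bases of it. Tank, an adaptor of TRAF signalling, had 9.16, 9.99, 11.1 and 8.31 in MOCA replicates 1 to 4 and 9.59, 8.95, 9.50 and 9.54 in control replicates 1 to 4, with overlap between the groups. Slc4a10, a bicarbonate transporter, was at most 0.55 in any mouse. Psmd7, the subunit that pairs with Psmd14 in the cap, had 49.7, 48.9, 51.2 and 47.5 in MOCA livers and 45.4, 50.4, 41.0 and 49.2 in control livers. These groups overlapped, and the log2 fold change of Psmd7 was 0.088 (SE 0.078, limma adjusted p = 0.599).

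The sequence around the start of Psmd14 is printed with those of 3 other members, Psmc6 as a cap ATPase gene whose groups did not overlap, Psmb6 as a constitutive and Psmb9 as an inducible catalytic gene. They come from RefSeq on GRCm38.p6, run from 250 bases before to 50 after the start and read 5′ to 3′ on the gene's strand. Capitals mark matches on either strand to TGACNNNGC, the core of the antioxidant response element that NRF1 and NRF2 bind, to GAAA, any 2 bases and GAAA again, a core of the interferon-stimulated response element, or to CCAAT.
Psmd14, chr2:61711444-61711743, + strand: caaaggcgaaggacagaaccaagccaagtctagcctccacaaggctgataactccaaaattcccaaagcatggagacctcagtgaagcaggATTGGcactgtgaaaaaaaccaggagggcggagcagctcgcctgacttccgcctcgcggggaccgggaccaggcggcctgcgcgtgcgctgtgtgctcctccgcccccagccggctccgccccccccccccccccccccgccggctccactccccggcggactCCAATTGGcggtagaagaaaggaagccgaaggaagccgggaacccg
Psmc6, chr14:45329574-45329873, + strand: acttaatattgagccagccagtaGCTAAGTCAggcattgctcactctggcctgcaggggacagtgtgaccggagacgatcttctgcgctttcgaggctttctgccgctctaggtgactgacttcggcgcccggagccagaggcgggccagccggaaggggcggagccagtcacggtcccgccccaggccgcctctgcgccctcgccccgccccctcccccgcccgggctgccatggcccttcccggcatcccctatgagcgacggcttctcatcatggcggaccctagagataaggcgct
Psmb6, chr11:70525107-70525406, + strand: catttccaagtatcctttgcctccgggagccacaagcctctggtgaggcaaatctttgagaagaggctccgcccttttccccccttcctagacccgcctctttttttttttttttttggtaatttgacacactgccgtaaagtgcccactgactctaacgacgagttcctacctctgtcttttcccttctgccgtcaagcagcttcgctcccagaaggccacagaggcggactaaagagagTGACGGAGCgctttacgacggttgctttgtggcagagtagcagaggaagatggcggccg
Psmb9, chr17:34187281-34187580, - strand: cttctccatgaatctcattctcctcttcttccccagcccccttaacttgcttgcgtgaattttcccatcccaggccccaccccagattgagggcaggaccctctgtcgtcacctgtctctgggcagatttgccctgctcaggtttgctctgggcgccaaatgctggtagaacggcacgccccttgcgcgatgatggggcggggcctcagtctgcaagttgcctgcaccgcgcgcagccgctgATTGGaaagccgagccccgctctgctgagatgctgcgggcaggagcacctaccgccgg

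In the Psmd14 window the letters CCAAT occurred 3 times over both strands, 2 of them overlapping each other just after the start, and neither of the other motifs was found. Psmb6 held TGACNNNGC as TGACGGAGC, beginning 9 bases before the start that its window uses. The RefSeq span of Psmb6 begins earlier, at 70525324, so the motif lies within that span. Psmc6 held TGACNNNGC in reverse, as GCTAAGTCA, beginning 227 bases before the start. Of the 48 genes 40 had an entry, with 43 windows, and 6 of the windows held TGACNNNGC (14%, against 12.4% of all 32851 windows), in Psmb5, Psmb6, Psmc6, Psmd9, Psmd12 and Psme4. The interferon core was in 5 windows (11.6%, against 3.44%), in Psmb3, Psmd4, Psmd9, Psme1 and Psmg4, and in no window of Psmb8, Psmb9 or Psmb10. CCAAT was in 13 windows (30.2%, against 37.4%). The share for TGACNNNGC was near the background.

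The 6 ATPases of the cap, which unfold the substrate, had log2 fold changes of 0.14 to 0.26 with a median of 0.20. Limma, edgeR and DESeq2 called 0 of them, and 4 had an unadjusted limma p under 0.05. Psmc6 had 67.7, 65.2, 66.5 and 62.1 in MOCA livers and 54.0, 61.6, 50.1 and 57.9 in control livers. Every MOCA value lay above every control value, though by little, with a log2 fold change of 0.23 (SE 0.076, limma adjusted p = 0.174). Psmc4 had 59.9, 58.2, 67.5 and 55.8 in MOCA livers and 50.1, 56.0, 43.9 and 51.2 in control livers. MOCA replicate 4 was just below control replicate 2, and the log2 fold change was 0.26 (SE 0.089, limma adjusted p = 0.175). The other ATPase genes Psmc1, Psmc2, Psmc3 and Psmc5 had limma adjusted p between 0.225 and 0.46.

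Of the 11 other cap subunits 1 was called, Psmd14, and 10 of the 11 had a positive log2 fold change, with a median of 0.16. Psmd2, the large scaffold subunit to which shuttle proteins dock, had 155, 163, 173 and 150.2 in MOCA livers and 124, 147, 117 and 151 in control livers. MOCA replicate 4 fell below control replicate 4, so the groups overlapped (log2 fold change 0.25, SE 0.092, limma adjusted p = 0.198). Psmd1, the other large scaffold subunit, had a log2 fold change of 0.19 and Psmd13 of 0.23 (limma adjusted p = 0.256 and 0.302). At the low end, Psmd11, which clamps the cap to the core, averaged 132 ± 2.12 in MOCA livers and 135 ± 9.04 in control livers (log2 fold change -0.030). That sign turned when columns were scaled to equal sums (0.023). Psmd8 had a log2 fold change of 0.025, which turned negative without control replicate 3. Psmd4, a ubiquitin receptor, and Psmd3, Psmd6 and Psmd12 lay between 0.092 and 0.18. Without control replicate 3 the median of this class was 0.097.

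**Figure D3:**
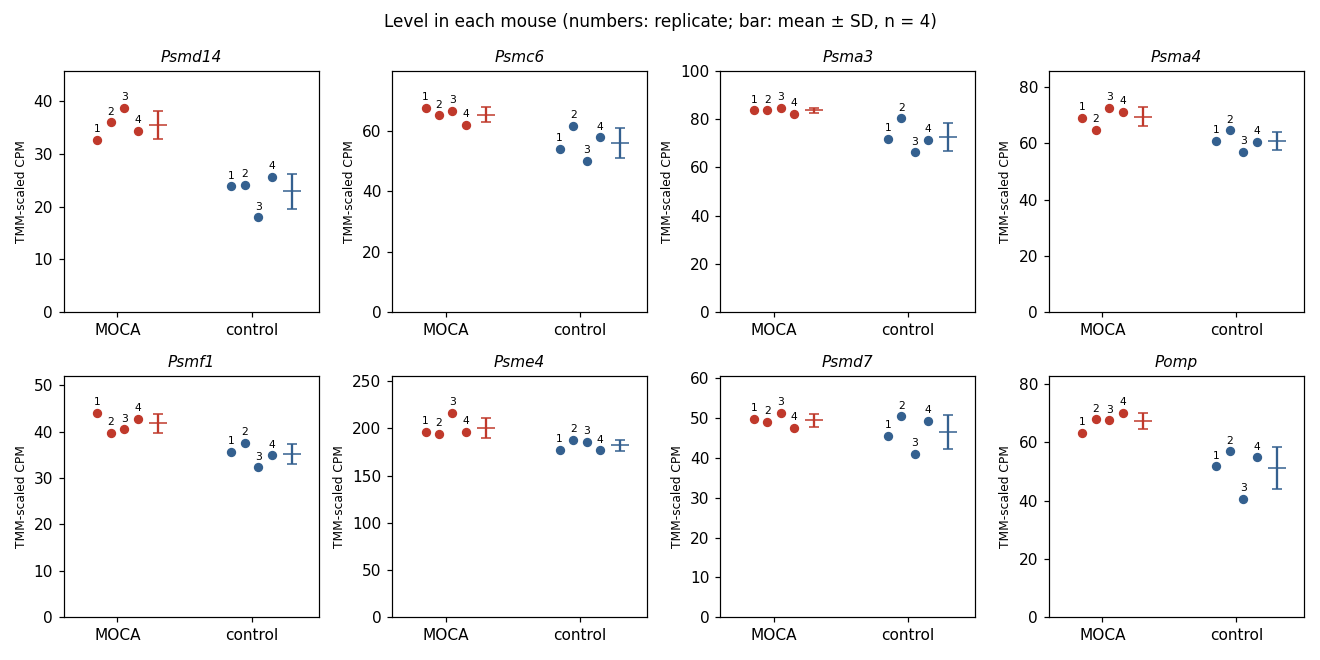
Level in each mouse, as TMM-scaled CPM, for the 6 members whose groups did not overlap, for Psmd7, the partner of Psmd14, and for the assembly factor Pomp. Points are mice numbered by replicate and bars are the mean ± SD of 4 mice. The Psmd14 values are 32.7 to 38.8 in MOCA livers and 18.0 to 25.6 in control livers, while those of Psmd7 overlap.

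In the core, limma, edgeR and DESeq2 called 0 of the 7 alpha and 0 of the 7 constitutive beta genes, although each of their log2 fold changes was positive. An unadjusted limma p under 0.05 was found for 3 alpha and 0 beta genes. The alpha subunits form the gated outer rings. Their log2 fold changes ran from 0.10 to 0.23 over 7 genes, with a median of 0.16. Psma3 had 83.6, 83.5, 84.7 and 82.3 in MOCA livers and 71.9, 80.2, 66.2 and 71.4 in control livers. The MOCA mice lay close together and above all controls (log2 fold change 0.21, SE 0.071, limma adjusted p = 0.175). Psma4 had 69.2, 64.9, 72.8 and 71.4 in MOCA livers and 61.0, 64.7, 57.0 and 60.5 in control livers, and again the groups did not overlap (log2 fold change 0.19, SE 0.069, limma adjusted p = 0.193). Of these, Psma3 overlapped the listed gene 3110056K07Rik and Psma4 the listed gene AY074887, taking each gene's whole span with its introns. Overlap of exons was not examined, and whether the counting used strand is not stated. How far reads of such pairs could be mixed is therefore not known. Psmd1, Psmd10, Psme1, Psme2b and Psme4 also overlapped a listed gene. Psma1 had the largest alpha log2 fold change, 0.23 (limma adjusted p = 0.235). Psma2, Psma5, Psma6 and Psma7 overlapped between the groups, with limma adjusted p of 0.323 to 0.634.

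The constitutive beta ring holds the cutting subunits Psmb5, Psmb6 and Psmb7, of chymotrypsin-like, caspase-like and trypsin-like activity. Psmb5 had 58.2, 64.3, 58.4 and 56.9 in MOCA livers and 43.9, 61.6, 50.7 and 58.6 in control livers. Psmb6 had 74.9, 81.7, 75.5 and 77.1 in MOCA livers and 67.4, 86.4, 68.2 and 78.3 in control livers. Psmb7 had 92.3, 93.3, 94.6 and 95.4 in MOCA livers and 74.0, 99.3, 81.6 and 85.4 in control livers. In all 3 the groups overlapped, with control replicates 1 and 3 low and control replicate 2 the highest control. Their log2 fold changes were 0.15, 0.049 and 0.15 (limma adjusted p = 0.466, 0.819 and 0.394), and that of Psmb6 turned to -7.08e-05 without control replicate 1. Psmb2 had 40.3, 41.6, 41.0 and 40.3 in MOCA livers and 35.6, 42.6, 34.3 and 34.9 in control livers, so control replicate 2 alone among controls exceeded the MOCA mice (log2 fold change 0.15, limma adjusted p = 0.361). The 7 beta genes had a median of 0.15, which was 0.063 without control replicate 1 and 0.086 without control replicate 3.

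None of the inducible catalytic subunits passed the test, and MOCA replicate 4 was the highest mouse in each. Psmb8, Psmb9 and Psmb10 replace Psmb5, Psmb6 and Psmb7 in the immunoproteasome. Limma, edgeR and DESeq2 called 0 of the 3, and 0 had an unadjusted limma p under 0.05. Psmb8 had 20.7, 20.7, 17.9 and 28.8 in MOCA livers and 17.6, 23.1, 21.6 and 23.8 in control livers. Its groups overlapped (log2 fold change 0.021, SE 0.14, limma adjusted p = 0.958), and the sign turned without MOCA replicate 4 (-0.11) or control replicate 1 (-0.068). Psmb9, which lies head to head with the peptide transporter gene Tap1, had 5.66, 6.83, 5.18 and 8.98 in MOCA livers and 6.57, 3.99, 4.20 and 5.16 in control livers. Only control replicate 1 among controls exceeded the lowest MOCA mouse (log2 fold change 0.35, SE 0.17, limma adjusted p = 0.316). Psmb10 had 17.1, 19.9, 17.9 and 23.0 in MOCA livers and 14.4, 18.7, 18.8 and 19.1 in control livers, overlapping again (log2 fold change 0.13, SE 0.12, limma adjusted p = 0.607). The median of the 3 was 0.13, and it was 0.036 without control replicate 1 and 0.050 without MOCA replicate 4.

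MOCA replicate 4 had the highest value of all 8 mice for Psmb8, Psmb9 and Psmb10, with a mean log2 deviation of 0.51, against 0.031, 0.18 and -0.051 in MOCA replicates 1, 2 and 3. It also stood apart in the 20 antigen presentation and interferon genes, at 0.55, against -0.013, -0.026 and -0.15 in MOCA replicates 1, 2 and 3 and -0.089 to 0.073 in controls. Tap1 had 11.6, 13.7, 14.6 and 24.6 in MOCA livers and 13.5, 10.9, 11.8 and 13.6 in control livers (limma adjusted p = 0.436). The same mouse had the highest sums of macrophage markers, 497, and of lymphocyte markers, 14.4, and the lowest sum of hepatocyte markers, 98175. Ptprc alone made up 12.5 of that lymphocyte sum. The part of these sums in the values of the inducible subunits was not tested.

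The ratio of inducible to constitutive subunit was set per mouse as a difference of log2(value + 1). For Psmb8 to Psmb5 it averaged -1.41 ± 0.316 in MOCA livers and -1.28 ± 0.0769 in control livers, a difference of -0.13 (SE 0.16, exact two-sided permutation p = 0.457). For Psmb9 to Psmb6 it averaged -3.38 ± 0.288 in MOCA livers and -3.68 ± 0.391 in control livers, a difference of 0.30 (SE 0.24, exact permutation p = 0.257). For Psmb10 to Psmb7 it averaged -2.22 ± 0.167 in MOCA livers and -2.20 ± 0.139 in control livers, a difference of -0.019 (SE 0.11, exact permutation p = 0.829), which lay between -0.091 and 0.029 when a mouse was left out. Adjusted over the 3 ratios, p was 0.686, 0.686 and 0.829, and the smallest p that 4 against 4 mice allow is 0.0286. Without MOCA replicate 4 the first difference was -0.29 (exact permutation p = 0.0286, unadjusted), the smallest value 3 against 4 mice can give, with every remaining MOCA ratio below every control ratio. With all 8 mice, none of the 3 differences passed the test.

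**Figure D4:**
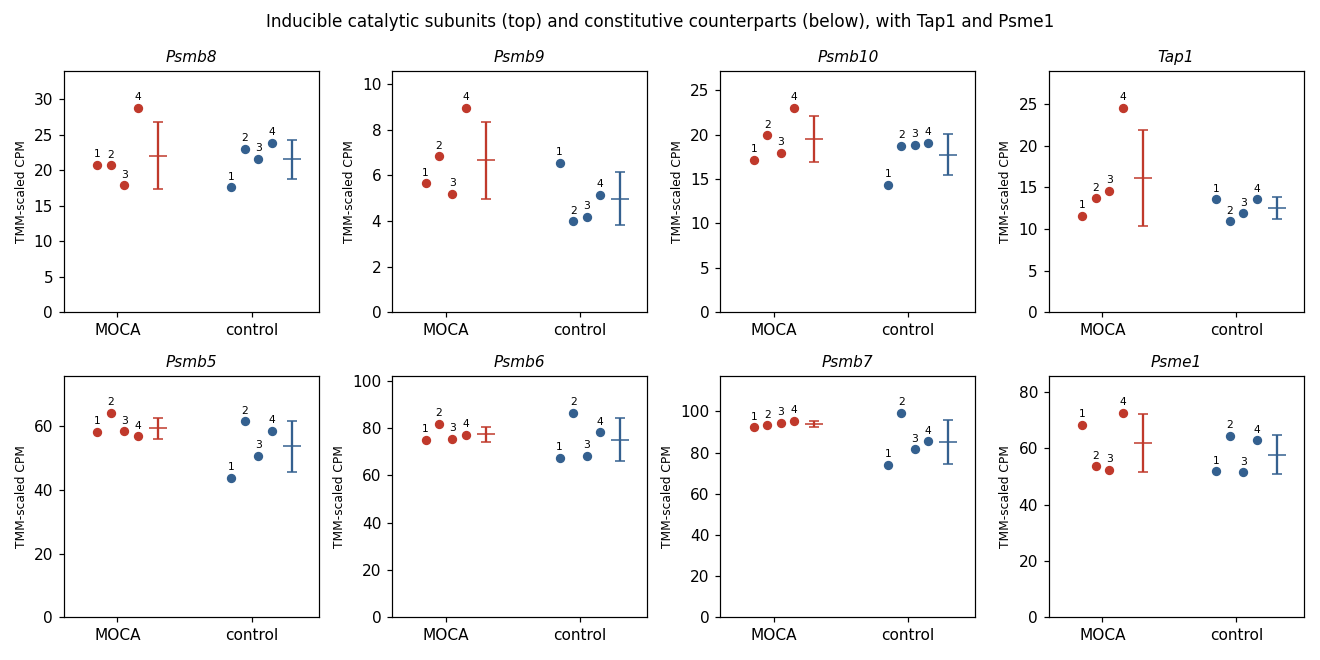
Level in each mouse, as TMM-scaled CPM, of the inducible catalytic subunits and Tap1 (top row) and of their constitutive counterparts and the activator Psme1 (bottom row). Points are mice numbered by replicate and bars are the mean ± SD of 4 mice. MOCA replicate 4 is the highest mouse for Psmb8 at 28.8, Psmb9 at 8.98, Psmb10 at 23.0 and Tap1 at 24.6.

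The regulators that dock to the core in place of the cap, and the inhibitor, numbered 6, with a median log2 fold change of 0.12. Limma, edgeR and DESeq2 called 0 of them, and 1 had an unadjusted limma p under 0.05. Psmf1, which encodes PI31, an inhibitor of the core in vitro, had 44.0, 39.8, 40.5 and 42.8 in MOCA livers and 35.6, 37.5, 32.3 and 34.9 in control livers. Every MOCA value lay above every control value, and its p was the smallest after that of Psmd14 (log2 fold change 0.25, SE 0.072, limma adjusted p = 0.132). Psme4, which encodes the nuclear activator PA200, had 196, 194, 217 and 196 in MOCA livers and 177.5, 188, 186 and 177 in control livers. These groups did not overlap either (log2 fold change 0.14, SE 0.065, limma adjusted p = 0.291), and the span of Psme4 overlaps that of the listed gene Erlec1. Psme1 and Psme2 form the interferon-inducible activator. Psme1 averaged 61.8 ± 10.3 in MOCA livers and 57.7 ± 6.92 in control livers, and Psme2 averaged 57.9 ± 5.71 in MOCA livers and 55.1 ± 8.47 in control livers (limma adjusted p = 0.748 and 0.759). Psme1 was highest in MOCA replicate 4, at 72.6. Psme3, a nuclear activator of the same family, had a log2 fold change of 0.13 (limma adjusted p = 0.441). Psme2b, a close copy of Psme2, averaged 1.12 ± 0.464 in MOCA livers and 0.993 ± 0.578 in control livers from 7 to 31 reads per library, and how the counting split reads between the 2 genes is not given, so its value is uncertain.

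No assembly factor passed the test. The Psmg genes encode chaperones that work in pairs, Psmg1 with Psmg2 and Psmg3 with Psmg4, to build the alpha ring. Limma, edgeR and DESeq2 called 0 of the 4, and 0 had an unadjusted limma p under 0.05. Psmg1 had 11.2, 12.9, 12.5 and 12.9 in MOCA livers and 11.2, 12.2, 9.997 and 11.3 in control livers. Psmg2 had 8.65, 8.19, 8.29 and 10.6 in MOCA livers and 8.48, 9.08, 6.48 and 9.54 in control livers. Both overlapped between the groups, with log2 fold changes of 0.14 and 0.085 (limma adjusted p = 0.457 and 0.773). Psmg3 had 7.06, 7.03, 8.36 and 6.11 in MOCA livers and 5.81, 6.44, 5.68 and 7.08 in control livers. Psmg4 had 3.88, 5.54, 4.92 and 4.28 in MOCA livers and 3.83, 6.05, 3.95 and 4.74 in control livers. These overlapped as well, with log2 fold changes of 0.16 and 0.011 (limma adjusted p = 0.481 and 0.979). The median of the 4 was 0.11, and 0.036 without control replicate 3, without which Psmg2 and Psmg4 turned negative.

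The chaperones of cap assembly that carry a Psmd symbol, Psmd5, Psmd9 and Psmd10, had 0 calls by limma, edgeR and DESeq2 and 0 unadjusted limma p under 0.05. Psmd10, also known as gankyrin and studied as a liver oncoprotein, had 5.66, 7.67, 6.35 and 7.15 in MOCA livers and 6.27, 6.96, 3.95 and 5.52 in control livers. Its groups overlapped (log2 fold change 0.22, SE 0.15, limma adjusted p = 0.477), and its span overlaps that of the listed gene Atg4a. Psmd5 had 33.5, 32.9, 36.1 and 32.8 in MOCA livers and 29.9, 34.3, 33.0 and 29.4 in control livers (log2 fold change 0.096, limma adjusted p = 0.55). Psmd9 averaged 17.3 ± 1.43 in MOCA livers and 18.2 ± 0.681 in control livers, the lowest log2 fold change of the members at -0.067 (limma adjusted p = 0.722). The median of the 3 was 0.096, and 0.063 without control replicate 4.

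Levels were compared between genes per kilobase of spliced length, taken as the median over the protein-coding transcripts of each gene in GENCODE M21; the isoforms used in these livers are not known. The constitutive beta genes had the highest class median, a level of 79.1 CPM per kilobase in MOCA livers and 71.0 in control livers. Median levels of the alpha genes were 51.8 CPM per kilobase in MOCA and 44.4 in control livers. Those of the cap ATPases were 38.7 in MOCA and 33.3 in control livers, and those of the other cap subunits 40.7 in MOCA and 35.8 in control livers. Psmb6 had the highest level per length, 96.9 ± 3.83 in MOCA livers and 94.1 ± 11.3 in control livers. The inducible subunits lay far below their counterparts, with Psmb10 at 14.9 ± 2.01 in MOCA and 13.5 ± 1.73 in control livers, Psmb8 at 13.5 ± 2.90 in MOCA and 13.2 ± 1.70 in control livers, and Psmb9 at 4.93 ± 1.25 in MOCA and 3.68 ± 0.868 in control livers. Psmb8 and Psmb10 did not differ beyond their spread. The assembly genes were low too, the Psmg genes at a median of 8.94 in MOCA and 8.38 in control livers and the cap chaperones at 6.67 in MOCA and 6.99 in control livers. Psmd14 had the lowest level per length among the 11 other cap subunits, at 23.0 ± 1.69 in MOCA livers and 14.9 ± 2.18 in control livers. Psma2, at 16.0 in MOCA and 14.4 in control livers, was the lowest alpha gene, and it has the longest spliced length of the alpha genes, 2911 bases.

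**Figure D5:**
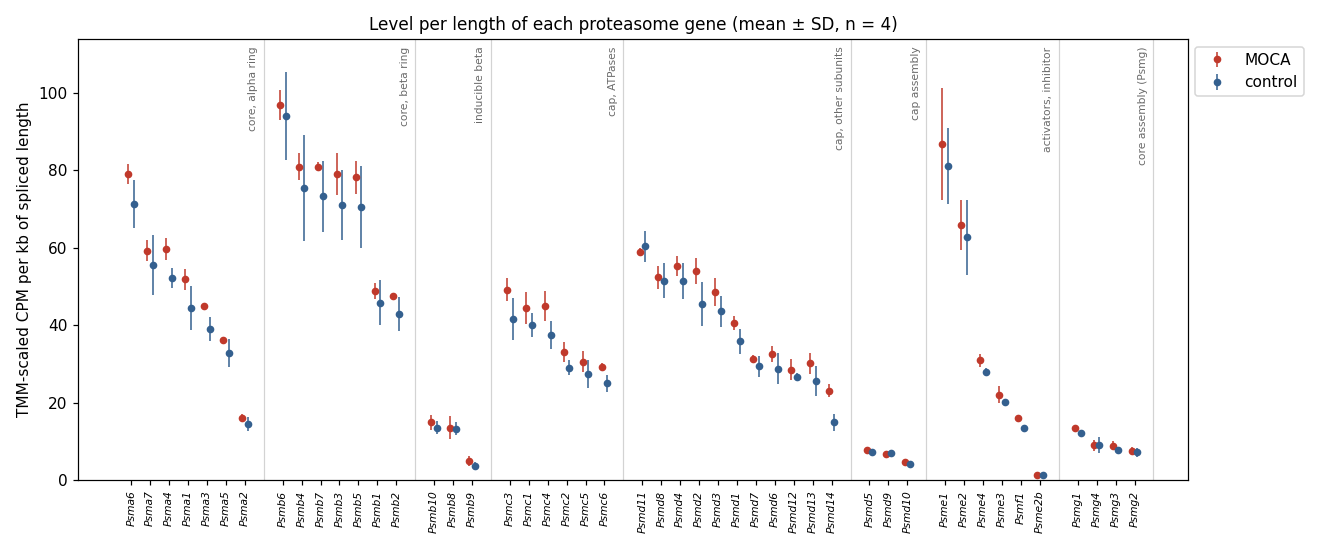
Level per kilobase of spliced length of the 47 tested genes, as TMM-scaled CPM per kilobase, mean ± SD of 4 mice per group, ordered within each class by the control level. The constitutive beta genes reach 96.9 in MOCA livers, the inducible subunits stay at or below 14.9, and Psmd14 is the lowest of the other cap subunits.

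Proteasome partners without a Psm symbol were listed for 11 of 15 names. Limma and edgeR called 0 of the 11 and DESeq2 called 2, where DESeq2 called 3.54% of all tested genes. An unadjusted limma p under 0.05 was found for 4, and the median log2 fold change was 0.064. Pomp, which helps the beta rings mature, had 63.3, 67.8, 67.4 and 70.0 in MOCA livers and 51.8, 56.8, 40.7 and 54.7 in control livers. The groups did not overlap (log2 fold change 0.40, SE 0.099, limma adjusted p = 0.0864, DESeq2 adjusted p = 0.0176). Usp14, a deubiquitinase that binds the cap, had 49.1, 47.8, 44.2 and 49.8 in MOCA livers and 36.5, 37.2, 35.9 and 43.0 in control livers. Again every MOCA value was higher (log2 fold change 0.32, SE 0.078, limma adjusted p = 0.0855, DESeq2 adjusted p = 0.0282).

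Of 9 genes that control proteasome gene transcription, with a median of -0.036, limma, edgeR and DESeq2 called 0. At an unadjusted limma p under 0.05, 1 was higher (11.1%, against 9.42% of all tested genes). Nfe2l1 itself had 253, 228, 219 and 223 in MOCA livers and 230, 254, 218 and 271 in control livers (log2 fold change -0.072, limma adjusted p = 0.703). Nfe2l2, which encodes NRF2, had 93.6, 117, 113 and 89.8 in MOCA livers and 83.4, 89.3, 94.7 and 88.8 in control livers, with overlap (log2 fold change 0.20, limma adjusted p = 0.286). Nfe2l3, a relative of both, averaged 1.63 ± 0.349 in MOCA livers and 2.55 ± 1.06 in control livers (limma adjusted p = 0.288).

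The 17 tested genes of ubiquitin supply and delivery had a median log2 fold change of 0.038. Ubqln1, a shuttle protein, averaged 247 ± 11.5 in MOCA livers and 223 ± 11.7 in control livers (log2 fold change 0.15, limma adjusted p = 0.289).

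The 20 antigen presentation and interferon genes had a median of 0.073. Limma, edgeR and DESeq2 called 0 of them. At an unadjusted limma p under 0.05, 2 were higher and 1 lower, a share not above the 17.5% of all tested genes. Irgm1, an interferon-induced GTPase, averaged 46.3 ± 9.96 in MOCA livers and 35.8 ± 4.80 in control livers, and H2-K1, an MHC class I chain, 361 ± 22.1 in MOCA livers and 424 ± 49.2 in control livers (limma adjusted p = 0.223 and 0.236). The 17 tested chaperones of the endoplasmic reticulum had a median of 0.37, and 7 had an unadjusted limma p under 0.05. The 12 heat shock genes had a median of 0.19, and 3 had an unadjusted limma p under 0.05. In each of these lists limma and edgeR called 0 genes and DESeq2 called 1, where DESeq2 called 3.54% of all tested genes. The log2 fold change was positive for 16 of 17 endoplasmic reticulum chaperones (94.1%) and 8 of 12 heat shock genes (66.7%), against 51.1% of all tested genes. Pdia6 and Hsp90b1 had log2 fold changes of 0.58 and 0.34 (limma adjusted p = 0.0632 and 0.165), and their groups did not overlap. Hspe1 and Hsp90aa1 had 0.39 and 0.45 (limma adjusted p = 0.0976 and 0.225), with overlap. The DESeq2 calls were Pdia6 and Hspe1 (DESeq2 adjusted p = 0.00201 and 0.028). MOCA replicate 3, the mouse with the highest proteasome mean, also had the highest mean log2 deviation of these lists, 0.88 for the endoplasmic reticulum chaperones and 0.56 for the heat shock genes. MOCA replicate 4 had -0.080 and -0.31, with a proteasome mean of 0.14. Controls ran from -0.20 to 0.23 and from -0.25 to 0.21. The part of these lists in the proteasome values was not tested.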

How the data were processed

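Liver RNA, 1 library per mouse, went through ribosomal RNA depletion and a directional library kit, per the labels' protocols. Trimmomatic 0.38, Bowtie2, RSEM, edgeR and the mouse build mm10 are named, with no role or order, per the submitters' processing notes. The authors deposited 1 table of normalised signal (counts divided by a factor per library). Every value (100%) was a multiple of its column's step within 0.001, and 1 read was worth 0.0581 to 0.0648.

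Genes at 1 or above in 4 of 8 libraries (12008) entered limma 3.58.1 in R 4.3.3 (log2 of value + 1, eBayes with trend, no covariate), and p was adjusted by Benjamini-Hochberg over all of them. The test was also run on simulated data. Alternatives were edgeR 4.0.16 and DESeq2 1.42.0 on recovered reads, pseudocounts of 0.25 and 4, other filters, 3 scalings, other eBayes settings, a replicate block, a threshold of 0.01 and leaving out each mouse. Leaving out Psmd14 was added after seeing the data. Ratios were tested by exact permutation. The p-values of limma, edgeR and DESeq2 set the difference between groups against the spread between mice, moderated over genes. Permutation p-values rank the difference among the 70 arrangements of the 8 mice.

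The members, lists and tests were chosen with earlier results of these data known. Values in every mouse are given for called members, catalytic subunits, Psmg genes and the 2 members of smallest p in each other class; each pathway list gives its 2 genes of smallest p, with Nfe2l1, Pomp and Tap1. One gene of the ubiquitin list that this rule names is not reported here. Psmd7, Psme1, the neighbours of Psmd14 and members at the ends of a range were added after their values were seen. Positions and promoters come from RefSeq and lengths from GENCODE, both on GRCm38, the assembly of mm10.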

Additional observations from a re-analysis of the deposited data

Results flagged for a closer look

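In 3 of 118 groups of 4 mice examined, 1 mouse lay far from the other 3 by Dixon's test at the 95% level, and chance flags about 1 in 20 groups. Psme4, the nuclear activator gene, was 217 in MOCA replicate 3, while the other MOCA mice had 194 to 196. Psmb2, a beta ring gene, was 42.6 in control replicate 2, against 34.3 to 35.6 in the other controls. Psmb10, an inducible subunit gene, was 14.4 in control replicate 1, against 18.7 to 19.1 in the other controls.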

How the results depend on the processing

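Called genes numbered 80 over all genes, 169 with equal column sums, 425 with DESeq2, 30 with the replicate block and 13 at an adjusted p under 0.01, and 29 to 77 when a mouse was left out. The called members numbered 1, and 0 with the replicate block (Psmd14 adjusted p = 0.0896) or at 0.01, and 0 to 1 when a mouse was left out; over every setting the adjusted p of Psmd14 ran from 7.49e-05 to 0.0896. Over all tested genes, deviations of same-numbered mice correlated at -0.074 to 0.036, and those of differently numbered mice at -0.16 to 0.21. Since deviations within a group sum to 0, these correlations cannot settle whether the replicate numbers pair the mice. The members' median log2 fold change was 0.20 with equal column sums, where that of all genes was 0.053, and 0.12 to 0.19 when a mouse was left out. Psmd11 turned to 0.023 with equal column sums and Psmg4 to -0.0039 with upper quartile scaling. When a mouse was left out, the difference in the ratio of Psmb8 to Psmb5 ran from -0.29 to -0.053, of Psmb9 to Psmb6 from 0.16 to 0.47 and of Psmb10 to Psmb7 from -0.091 to 0.029. Over the same fits Psmb6 ran from -7.08e-05 to 0.12, Psmb8 from -0.11 to 0.11, Psmd8 from -0.034 to 0.064, Psme2b from -0.040 to 0.28, Psmg2 from -0.021 to 0.14 and Psmg4 from -0.062 to 0.12 (log2 fold changes). The causes were not tested. Read depth limits Psma8 (5 to 13 reads per library) and Psme2b (7 to 31) most among the members.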
